A study of Mus musculus with 4 samples.

Results

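The 40 genes described here act in mitosis and the G2/M transition, and were chosen by name from lists of cell cycle genes, with earlier results of these data known. All 40 were found among the 25704 genes in the tables. They were measured by RNA-seq in CMT64, a mouse lung adenocarcinoma cell line, 24 h after stimulation. The 4 conditions were TGF-β1 at 5 ng/ml, TGF-β1 at 5 ng/ml together with TNF-α at 10 ng/ml (TGF-β + TNF-α), TNF-α at 10 ng/ml, and a negative control with neither cytokine. Each condition was 1 library of 1 cell line, so no difference below has a replicate check.

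Cells enter mitosis when Cdk1, bound to a cyclin A or cyclin B, is freed of inhibitory phosphates by the Cdc25 phosphatases. Aurora and Polo-like kinases then build the spindle, the spindle assembly checkpoint holds the cell until every kinetochore is attached, and the anaphase-promoting complex (APC/C) starts chromosome separation and mitotic exit. Most of these mRNAs peak together late in the cell cycle, driven by the MuvB complex with B-Myb and FoxM1, so that their summed level is widely read as a sign of proliferation. TGF-β arrests many epithelial cells in G1, whereas carcinoma cells often escape this arrest. In a bulk sample, fewer cells in a phase and less RNA per cell cannot be told apart.

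The libraries held from 67481462 to 71898396 exon reads, and each member had between 947 and 28204 reads in each library. Levels are given as RPKM (reads scaled to exon length and to mapped reads), and the RPKM ratios carry 95% Clopper-Pearson intervals that cover counting error only. Of the epithelial markers, 4 of 6 were above 1 RPKM in every library, while Epcam did not exceed 0.103 RPKM and Cldn4 passed 1 RPKM in the TGF-β libraries alone (22.0 and 23.1 RPKM). Their sum was lower in both TGF-β libraries, at 2441 RPKM with TGF-β and 2224 RPKM with TGF-β + TNF-α, against 3270 RPKM with TNF-α and 3860 RPKM in control. No endothelial marker (0 of 3) and no lung alveolar marker (0 of 3, Sftpc, Sftpb and Nkx2-1) passed 1 RPKM, and of the haematopoietic markers only Cd68 did (1 of 5). The fibroblast markers summed to 9.62 RPKM with TGF-β and 11.5 RPKM with TGF-β + TNF-α, against 0.428 RPKM with TNF-α and 0.455 RPKM in control. Col1a1 carried nearly all of that sum and the other 5 were below 1 RPKM in every library. The part of these markers in the results below was not tested.

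With TGF-β, the mitosis and G2/M genes did not shift together as a group. Their RPKM summed to 840 with TGF-β, 859 with TGF-β + TNF-α, 796 with TNF-α and 873 in control. Their share of exon reads was 0.347% with TGF-β, 0.352% with TGF-β + TNF-α and 0.322% with TNF-α, against 0.332% in control. For TNF-α over control, 8 of 40 were lower past an RPKM ratio of 1.2 and 1 was higher, beside 12.9% and 18.0% of genes. Set against genes of like GC content, 11 were lower and 0 higher, beside 7.93% and 9.19% of genes. Single members lay above or below control, but for TGF-β over control 0 of 40 had an RPKM ratio over 2 or under 0.5 at an RPKM over 2, where 5.89% of genes were higher and 6.31% were lower. Cdc25b came nearest, with a ratio of 0.511, and 0.501 for TGF-β + TNF-α over control. With TMM factors, which rescale each library to the bulk of its genes, its ratio was 0.482 for TGF-β over control, so that 1 of 40 was under 0.5, beside 7.18% of genes.

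**Figure D1:**
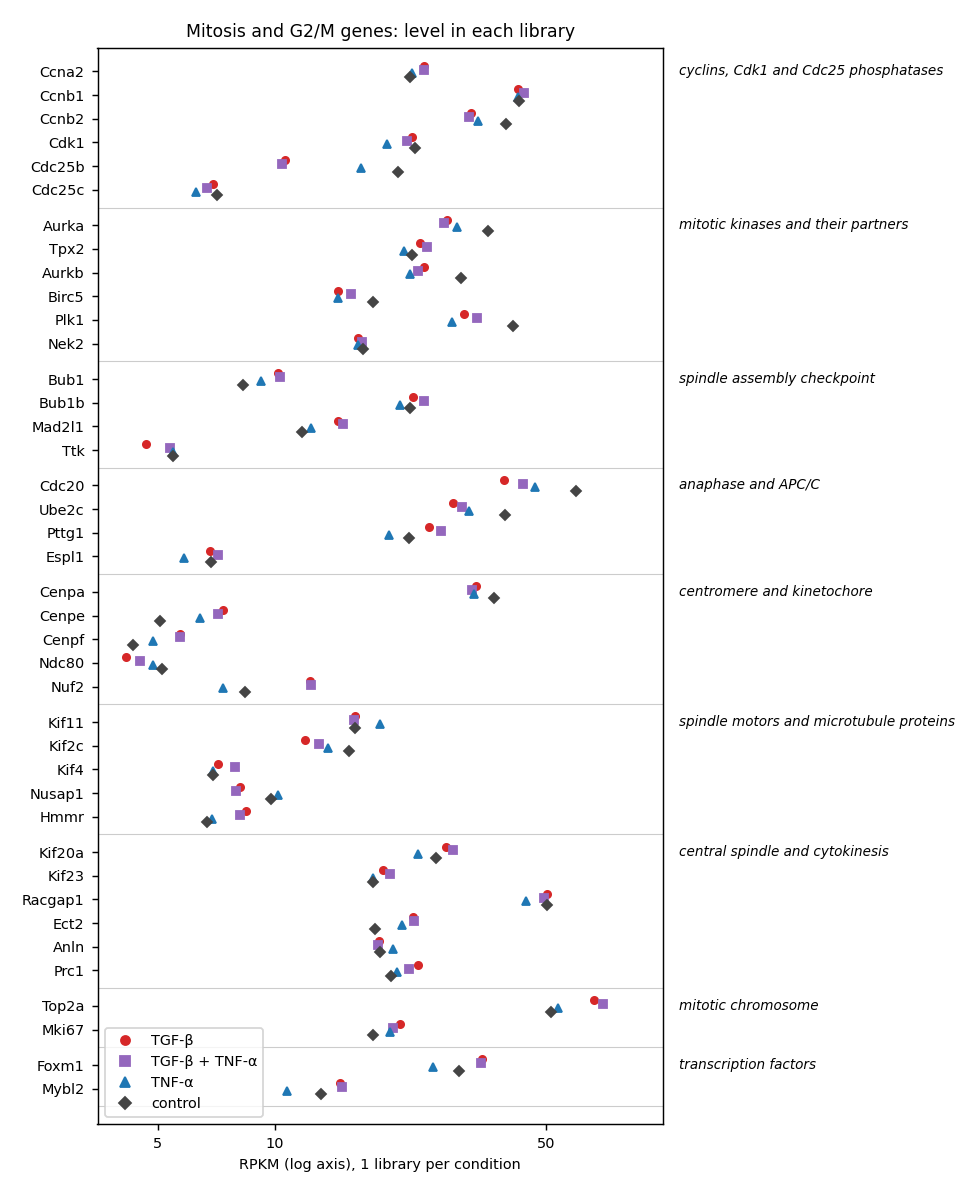
RPKM (log axis) of each of the 40 mitosis and G2/M genes in the 4 libraries, grouped by role, with 1 point per library. Cdc25b and Cdc20 lie lower in both TGF-β libraries than in the 2 without TGF-β, and Nuf2 and Top2a lie higher in both.

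To ask which members responded to TGF-β over both backgrounds, exon reads were fitted in edgeR with 1 additive term for each cytokine. With 4 libraries this leaves 1 residual degree of freedom, and departures from additivity stand in for the spread between replicates. Of the 40 members, 2 rose and 3 fell with TGF-β at an adjusted p under 0.05. Of the 13509 genes tested, 18.6% rose and 19.9% fell. In either direction 5 of 40 members were called, beside 38.4% of all genes. The median log2 fold change was 0.02 over the members and 0.01 over all genes. With library sizes alone in place of TMM factors, 3 members rose and 1 fell, beside 22.7% and 16.4% of all genes.

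Cdc25b, a phosphatase that activates Cdk1 at the centrosome before mitosis, fell most. It stood at 10.6 RPKM with TGF-β and 10.4 RPKM with TGF-β + TNF-α, against 16.7 RPKM with TNF-α and 20.8 RPKM in control. Both TGF-β libraries were below both others. The log2 fold change was -0.89 (SE 0.15, adjusted p = 3.4e-08 from edgeR).

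Nuf2, a subunit of the Ndc80 complex that links kinetochores to microtubules, rose most. Its levels were 12.3 RPKM with TGF-β and 12.4 RPKM with TGF-β + TNF-α, against 7.38 RPKM with TNF-α and 8.40 RPKM in control. The 2 pairs of libraries did not overlap, and the log2 fold change was 0.58 (SE 0.15, adjusted p = 0.00052 from edgeR). Cdc25b and Nuf2 were called in all 12 alternative fits.

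Top2a, the topoisomerase that untangles sister chromatids, also rose. It had 66.5 RPKM with TGF-β and 69.9 RPKM with TGF-β + TNF-α, against 53.6 RPKM with TNF-α and 51.4 RPKM in control, which made it the most abundant member in the 3 cytokine libraries. Its log2 fold change was 0.31 (SE 0.13, adjusted p = 0.045 from edgeR). The call was lost in 5 of 12 alternative fits, among them edgeR with offsets for GC content and transcript length (adjusted p = 0.092) and DESeq2 (adjusted p = 0.059).

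Cdc20, the activator that directs the APC/C to securin and cyclin B, fell. It was at 38.9 RPKM with TGF-β and 43.7 RPKM with TGF-β + TNF-α, against 46.9 RPKM with TNF-α and 59.7 RPKM in control. The TGF-β libraries were again the lowest, but the gap between TGF-β + TNF-α and TNF-α was small (ratio 0.931, interval 0.899 to 0.964). The log2 fold change was -0.43 (SE 0.15, adjusted p = 0.014 from edgeR), and the call was lost in 3 of 12 alternative fits.

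Nusap1, a protein that bundles spindle microtubules near chromatin, fell as well. Levels were 8.14 RPKM with TGF-β and 7.94 RPKM with TGF-β + TNF-α, against 10.2 RPKM with TNF-α and 9.76 RPKM in control. The log2 fold change was -0.38 (SE 0.15, adjusted p = 0.031 from edgeR), and it was past the threshold in 6 of 12 alternative fits. DESeq2 gave an adjusted p of 0.053.

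**Figure D2:**
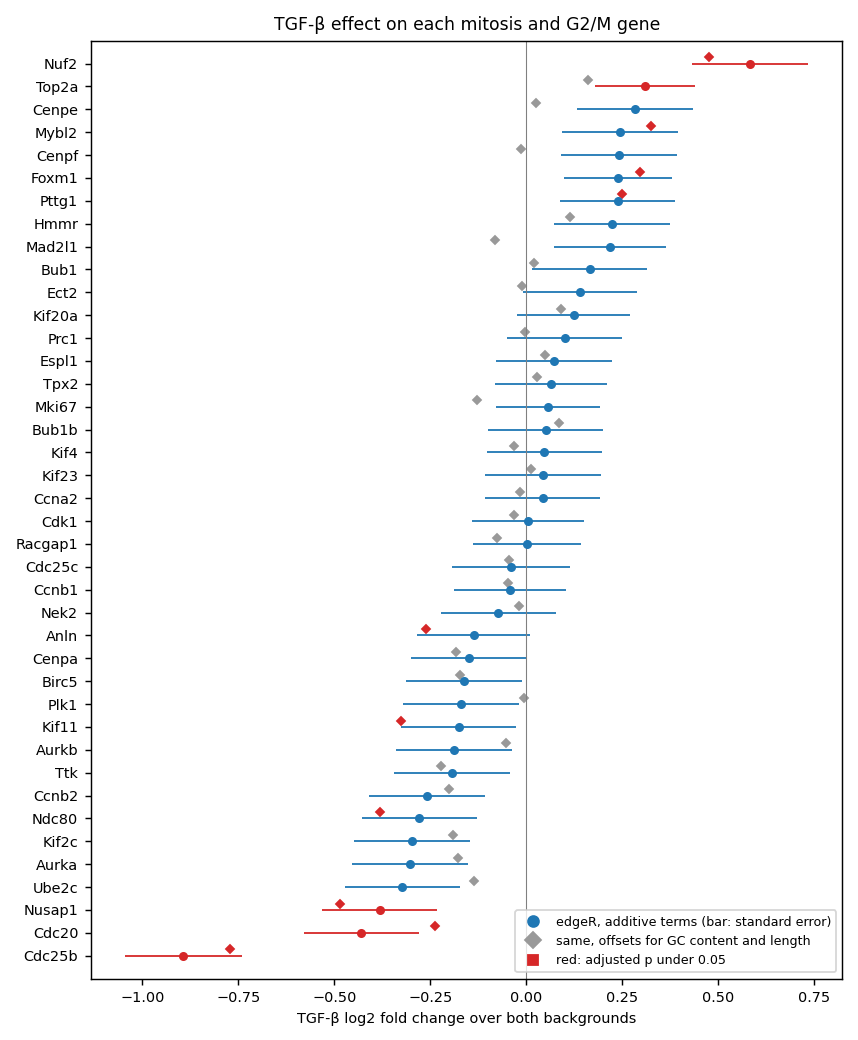
TGF-β log2 fold change of each member over both backgrounds, from edgeR with additive terms (circles, bars are 1 standard error) and from the same fit with offsets for GC content and transcript length (diamonds), with red for an adjusted p under 0.05. Nuf2 (0.58) and Cdc25b (-0.89) lie farthest from 0, and both are red in both fits.

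The promoters of the called members were read to show where late cell cycle motifs lie. The CHR element (TTTGAA), the site through which the MuvB complex binds, and the CCAAT box (CCAAT), the NF-Y site, were searched on both strands in the 250 bases before the start of each gene, and matches of each were counted whether or not they shared bases with the other. RefSeq promoters (GRCm38.p6) were matched for 34 of 40 members, leaving Ccna2, Cdc25c, Tpx2, Aurkb, Kif20a and Foxm1 not analysed here. A CHR element was found in 10 of 34 (29.4%), beside 16.3% of 27025 promoters in all. A CCAAT box was found in 25 of 34 (73.5%, beside 34.5%), and at least 2 of them in 15 (44.1%, beside 10.5%). Both motifs were present in 9 promoters (26.5%, beside 5.73%). A match is a run of letters and not a measured site. Starts are those of RefSeq, which differ for some members from the gene ends given with the counts. The last 9 bases printed for Cdc20 and the last 26 for Cdk1 thus lie inside the gene by those ends. Larger gaps were found in promoters not printed. The searched bases ended 3867 bases inside Kif2c, 328 inside Kif4, 270 inside Pttg1, 109 inside Cenpa and 84 inside Ccnb1, and stopped 169 bases short of Mad2l1. The CHR element of Kif2c is among the 10 counted.

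Shown are the 150 bases before the start of the 5 called genes, with that of Cdk1 for comparison, a classic CHR promoter whose gene was not called. Each runs 5′ to 3′ on the gene's strand, with CHR and CCAAT letters of either orientation in capitals. They are Cdc25b (chr2:131186798-131186947, plus strand), Nuf2 (chr1:169531465-169531614, minus), Top2a (chr11:99024190-99024339, minus), Cdc20 (chr4:118437344-118437493, minus), Nusap1 (chr2:119618148-119618297, plus) and Cdk1 (chr10:69352913-69353062, minus).
Cdc25b: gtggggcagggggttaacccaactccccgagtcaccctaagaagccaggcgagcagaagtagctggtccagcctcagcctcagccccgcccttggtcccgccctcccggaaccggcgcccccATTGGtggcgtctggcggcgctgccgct
Nuf2: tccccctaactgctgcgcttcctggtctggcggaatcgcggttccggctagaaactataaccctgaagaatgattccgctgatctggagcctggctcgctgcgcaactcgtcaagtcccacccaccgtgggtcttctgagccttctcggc
Top2a: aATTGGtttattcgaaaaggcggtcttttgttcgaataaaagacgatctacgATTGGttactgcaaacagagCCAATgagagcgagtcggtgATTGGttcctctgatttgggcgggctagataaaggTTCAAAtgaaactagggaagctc
Cdc20: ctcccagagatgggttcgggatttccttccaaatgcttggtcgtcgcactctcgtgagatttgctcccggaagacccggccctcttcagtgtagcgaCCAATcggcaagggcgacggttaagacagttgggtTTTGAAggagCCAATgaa
Nusap1: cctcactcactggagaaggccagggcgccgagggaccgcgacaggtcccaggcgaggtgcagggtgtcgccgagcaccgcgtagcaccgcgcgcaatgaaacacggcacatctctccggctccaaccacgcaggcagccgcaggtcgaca
Cdk1: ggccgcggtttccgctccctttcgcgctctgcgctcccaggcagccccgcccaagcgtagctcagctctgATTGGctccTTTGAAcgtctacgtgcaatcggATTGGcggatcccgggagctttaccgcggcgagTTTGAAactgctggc

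The 5 called genes differed in these motifs. Top2a carried 6 CCAAT boxes and 2 CHR elements within 250 bases, the nearest CHR beginning 23 bases before the RefSeq start, and Cdc20 carried 2 CCAAT boxes with a CHR element beginning 18 bases before the start. Cdc25b had 1 CCAAT box, 28 bases before the start, and no CHR letters. Neither motif was present in the 250 bases before Nuf2 or Nusap1. Top2a, which rose, and Cdc20, which fell, thus had both motifs, while Nuf2, which rose, and Nusap1, which fell, had neither. Cdk1, with 3 CCAAT boxes and 2 CHR elements, had no change that passed the test.

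The 5 called genes lie on 4 chromosomes in mm10. Cdc25b (ENSMUSG00000027330, chr2:131186949-131198497) and Nusap1 (ENSMUSG00000027306, chr2:119618298-119651244) are on the plus strand. Nuf2 (ENSMUSG00000026683, chr1:169497934-169531464), Top2a (ENSMUSG00000020914, chr11:98992943-99024189) and Cdc20 (ENSMUSG00000006398, chr4:118432901-118437352) are on the minus strand. Exons of a gene on the opposite strand share 2.47% of the exon bases of Cdc25b (Spef1), 2.84% of Cdc20 (Elovl1) and 4.24% of Nusap1 (Oip5). The library preparation is not stated to keep strand, so reads in the shared bases cannot be told apart. The share was larger in Kif20a (Cdc23, 29.3%), Ube2c (Tnnc2, 22.8%), Kif4 (Pdzd11, 15.1%), Cdc25c (12.7%), Ccna2 (Exosc9, 12.5%) Prc1 (Rccd1, 11.1%), Plk1 (Gm44985, 7.09%) and Nek2 (Gm38037, 6.599%), whose values are uncertain to that extent. In Prc1, 46.4% of reads in control mapped to 1 place only.

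The levels are next given by role, with each TGF-β library set against the library that lacks TGF-β in the same background. TGF-β was compared with control, and TGF-β + TNF-α with TNF-α. Against control, 8 members were higher and 10 lower past a ratio of 1.2 (34.4% and 25.3% of 10699 genes above 1 RPKM). With TNF-α present, 8 were higher and 2 lower (27.3% and 21.3% of 10697 genes). The median log2 ratio over members was -0.0015 against control, where all genes had 0.07, and 0.11 against TNF-α, where all genes had 0.06. With TMM factors the counts were 4 higher and 12 lower against control (28.7% and 30.8% of all genes), and 5 higher and 3 lower against TNF-α (21.5% and 26.1% of all genes).

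Among the cyclins, Cdk1 and the Cdc25 phosphatases, only Cdc25b passed the additive test (1 of 6). Cdk1, the kinase that drives entry into mitosis, had 22.6 RPKM with TGF-β and 21.9 RPKM with TGF-β + TNF-α, against 19.5 RPKM with TNF-α and 23.0 RPKM in control. Ccnb1, the main mitotic cyclin, had 42.4 RPKM with TGF-β and 44.0 RPKM with TGF-β + TNF-α, against 42.3 RPKM with TNF-α and 42.6 RPKM in control. The Ccnb1 levels were nearly equal in the 4 libraries. Ccna2, which acts from S phase to early mitosis, had 24.2 RPKM with TGF-β and 24.3 RPKM with TGF-β + TNF-α, against 22.6 RPKM with TNF-α and 22.3 RPKM in control. Ccnb2 (ratios 0.812 and 0.945) and Cdc25c (0.975 and 1.07) did not pass.

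None of the mitotic kinases and their partners passed the additive test in edgeR or DESeq2 (0 of 6, with Aurka alone at an unadjusted p under 0.05 in edgeR), and 4 of 6 were lower past 1.2 against control. Plk1, the Polo-like kinase that acts at centrosomes, kinetochores and the midzone, had 30.7 RPKM with TGF-β and 33.3 RPKM with TGF-β + TNF-α, against 28.6 RPKM with TNF-α and 41.0 RPKM in control. The control library stood above the other 3, so the ratio was 0.747 (0.721 to 0.775) against control and 1.16 (1.12 to 1.21) against TNF-α. Aurkb, the kinase of the chromosomal passenger complex, gave 0.803 (0.769 to 0.839) and 1.05 (1.00 to 1.10). Birc5 (survivin), another subunit of that complex, gave 0.815 (0.781 to 0.850) and 1.08 (1.03 to 1.13). For these 3 genes, and no other member, the interval lay below 1 without TNF-α and above 1 with it, as it did for 4.8% of 10597 genes above 1 RPKM. No member had the opposite pattern.

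The spindle pole kinase Aurka was on the same side in both backgrounds, with ratios of 0.782 and 0.924. Tpx2, which activates Aurora A on microtubules, had 23.6 RPKM with TGF-β and 24.7 RPKM with TGF-β + TNF-α, against 21.6 RPKM with TNF-α and 22.6 RPKM in control. Nek2, a kinase of centrosome separation, had 16.4 RPKM with TGF-β and 16.8 RPKM with TGF-β + TNF-α, against 16.4 RPKM with TNF-α and 16.9 RPKM in control. The Nek2 intervals covered 1 in both backgrounds.

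The spindle assembly checkpoint genes had 0 of 4 calls in edgeR and in DESeq2, and 0 at an unadjusted p under 0.05 in edgeR. Bub1, a kinase that recruits checkpoint proteins to kinetochores, had 10.2 RPKM with TGF-β and 10.4 RPKM with TGF-β + TNF-α, against 9.25 RPKM with TNF-α and 8.27 RPKM in control. Mad2l1, which holds Cdc20 inactive, had 14.5 RPKM with TGF-β and 15.0 RPKM with TGF-β + TNF-α, against 12.4 RPKM with TNF-α and 11.8 RPKM in control. Both were above in the 2 TGF-β libraries, with Mad2l1 past 1.2 in both backgrounds (1.23 and 1.21). The additive test gave Mad2l1 a log2 fold change of 0.22 (SE 0.15, adjusted p = 0.24 from edgeR), which turned to -0.081 with offsets for GC content and length. Ttk (Mps1), the kinase that starts the checkpoint signal, had 4.68 RPKM with TGF-β and 5.37 RPKM with TGF-β + TNF-α, against 5.46 RPKM with TNF-α and 5.47 RPKM in control. Bub1b (BubR1), part of the inhibitor of the APC/C, had 22.7 RPKM with TGF-β and 24.3 RPKM with TGF-β + TNF-α, against 21.0 RPKM with TNF-α and 22.3 RPKM in control.

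Of the anaphase and APC/C genes, Cdc20 alone passed (1 of 4). Pttg1 (securin), which restrains separase until anaphase, lay on the other side of 1 from Cdc20. It had 25.03 RPKM with TGF-β and 26.8 RPKM with TGF-β + TNF-α, against 19.8 RPKM with TNF-α and 22.2 RPKM in control. Both TGF-β libraries were above both others, with ratios of 1.13 (1.08 to 1.19) and 1.35 (1.29 to 1.42), but the additive test was not passed (adjusted p = 0.21 from edgeR). Espl1, separase itself, had ratios of 0.995 and 1.22. Ube2c, the E2 enzyme of the APC/C, had 0.737 and 0.954 and an adjusted p of 0.074 from edgeR.

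Among the centromere and kinetochore genes, Nuf2 alone was called (1 of 5), and its partner in the Ndc80 complex lay the other way. Ndc80 had 4.15 RPKM with TGF-β and 4.49 RPKM with TGF-β + TNF-α, against 4.85 RPKM with TNF-α and 5.14 RPKM in control. Its ratios were 0.807 (0.755 to 0.863) and 0.926 (0.865 to 0.990), while those of Nuf2 were 1.46 (1.38 to 1.56) and 1.69 (1.58 to 1.80). The mRNAs of these partners thus lay on opposite sides of 1 in both backgrounds, although Ndc80 did not pass (log2 fold change -0.28, SE 0.15, adjusted p = 0.14 from edgeR). Cenpe, a kinetochore motor, had 7.38 RPKM with TGF-β and 7.16 RPKM with TGF-β + TNF-α, against 6.41 RPKM with TNF-α and 5.07 RPKM in control. Its control library stood below the other 3, with a ratio of 1.46 against control and 1.12 against TNF-α. Cenpf (1.31 and 1.17) and the centromeric histone Cenpa (0.902 and 0.989) did not pass.

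Of the spindle motors and microtubule proteins, Nusap1 was called (1 of 5). Hmmr, which tethers spindle microtubules, had 8.44 RPKM with TGF-β and 8.17 RPKM with TGF-β + TNF-α, against 6.90 RPKM with TNF-α and 6.68 RPKM in control. Kif2c (MCAK), which shortens microtubules, had 12.0 RPKM with TGF-β and 13.0 RPKM with TGF-β + TNF-α, against 13.8 RPKM with TNF-α and 15.5 RPKM in control. Both had non-overlapping pairs of libraries without passing the test. Kif11 (Eg5), the motor that pushes spindle poles apart, had 16.1 RPKM with TGF-β and 16.0 RPKM with TGF-β + TNF-α, against 18.6 RPKM with TNF-α and 16.1 RPKM in control, so that only the TNF-α library stood apart. The chromokinesin Kif4 had ratios of 1.03 and 1.14.

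No gene of the central spindle and cytokinesis was called (0 of 6 in edgeR and in DESeq2, and 0 at an unadjusted p under 0.05 in edgeR). Ect2, the exchange factor that activates RhoA for the contractile ring, had 22.7 RPKM with TGF-β and 22.8 RPKM with TGF-β + TNF-α, against 21.3 RPKM with TNF-α and 18.2 RPKM in control. Racgap1, its partner in centralspindlin signalling, had 50.1 RPKM with TGF-β and 49.3 RPKM with TGF-β + TNF-α, against 44.5 RPKM with TNF-α and 50.4 RPKM in control. Here the TNF-α library was lowest and the other 3 were alike. Anln, a scaffold of the ring, had 18.5 RPKM with TGF-β and 18.5 RPKM with TGF-β + TNF-α, against 20.2 RPKM with TNF-α and 18.7 RPKM in control. Ratios of the midzone proteins Kif20a (1.06 and 1.23), Kif23 (1.06 and 1.10) and Prc1 (1.18 and 1.07) were all above 1.

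Mki67, the proliferation antigen that coats mitotic chromosomes, had 21.0 RPKM with TGF-β and 20.2 RPKM with TGF-β + TNF-α, against 19.9 RPKM with TNF-α and 18.0 RPKM in control. It did not pass the additive test (1 of 2 in this role, with Top2a). The transcription factors of the late cell cycle program did not pass either (0 of 2 in edgeR and in DESeq2, and 0 at an unadjusted p under 0.05 in edgeR). Foxm1 had 34.3 RPKM with TGF-β and 34.0 RPKM with TGF-β + TNF-α, against 25.5 RPKM with TNF-α and 29.8 RPKM in control. Mybl2 (B-Myb) had 14.7 RPKM with TGF-β and 14.9 RPKM with TGF-β + TNF-α, against 10.8 RPKM with TNF-α and 13.2 RPKM in control. Both were above in both TGF-β libraries, with adjusted p-values of 0.18 and 0.20 from edgeR. With offsets for GC content and length both passed, at 0.30 (SE 0.08, adjusted p = 0.0012 from edgeR) for Foxm1 and 0.33 (SE 0.09, adjusted p = 0.0017 from edgeR) for Mybl2.

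**Figure D3:**
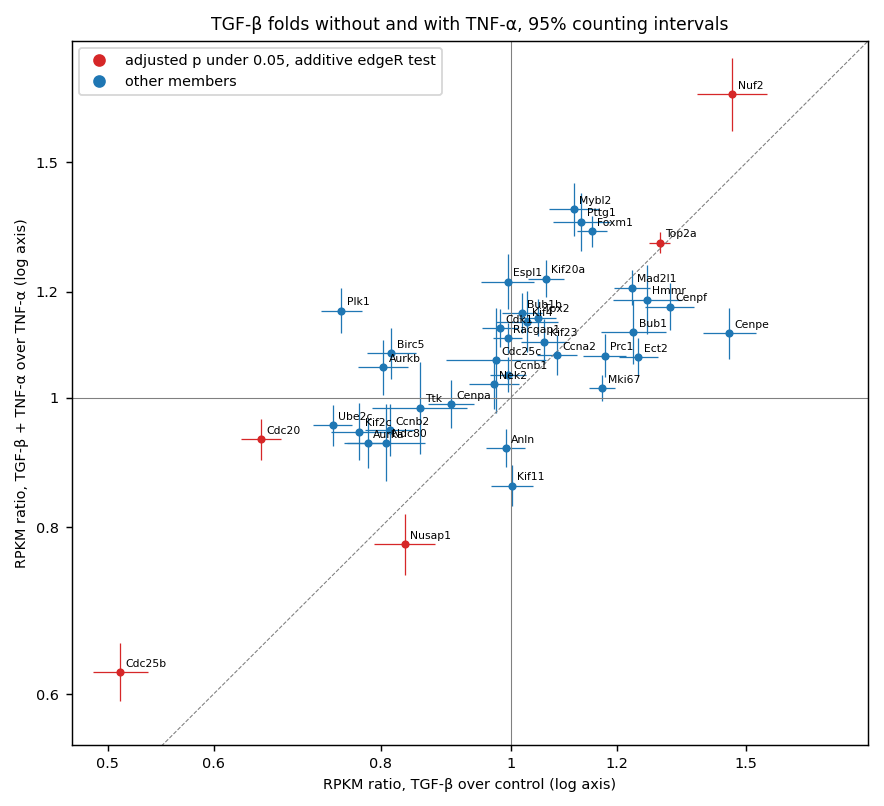
RPKM ratio of TGF-β over control (x) against TGF-β + TNF-α over TNF-α (y) for the 40 members on log axes, with 95% counting intervals and red points for members called in the additive edgeR test. Plk1 (0.747 and 1.16), Birc5 and Aurkb lie in the upper left, and no member has intervals clear of 1 in the lower right.

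Setting both backgrounds side by side, the interval lay above 1 in both for 16 of 40 members and below 1 in both for 8, beside 37.1% and 26.8% of all genes. Past 1.2, only Mad2l1, Nuf2 and Top2a were higher in both (3 of 40, beside 20.6%) and only Cdc25b was lower in both (1 of 40, beside 16.8%). On the log2 scale, the ratio with TNF-α present minus the ratio without it was above 0 in 28 of 40 members (47.6% of all genes), with a median of 0.15, and ranged from -0.38 (Cenpe) to 0.64 (Plk1). The difference could not be tested with 1 library per condition. TGF-β + TNF-α over control, which shares the control library with TGF-β over control, had 9 members higher and 8 lower past 1.2 (34.5% and 24.2% of all genes).

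TNF-α itself was compared next. In the additive edgeR fit 0 of 40 members rose and 0 fell with TNF-α, where 0.289% of all genes rose and 0.133% fell. No member had an unadjusted p under 0.05 in edgeR, DESeq2 or limma, and 2 members were lower at an unadjusted p under 0.05 in edgeR with offsets for GC content and length. Between the TGF-β + TNF-α and TGF-β libraries, 0 members were higher and 0 lower past 1.2 (3.42% and 2.9% of all genes), and the ratios ran from 0.946 to 1.15. Between TNF-α and control, 1 member was higher and 8 were lower (18% and 12.9% of all genes), and the median log2 ratio was -0.09 beside 0.01 for all genes. Cenpe was the 1 member above 1.2 (ratio 1.27), and Plk1 was the lowest (0.698, interval 0.673 to 0.724).

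The ratios against the control library followed the base composition and the length of the transcripts. Over the 40 members, Spearman's rho between the log2 ratio and GC content was -0.76 for TNF-α over control and -0.57 for TGF-β over control, but -0.02 for TGF-β + TNF-α over TNF-α. The genes share their libraries, so these are descriptions. Over all genes, the first of these comparisons had a rho of -0.67, the second -0.32 and the last 0.02. With transcript length in place of GC content, rho over the members was 0.57, 0.62 and 0.35 in the same order. Over all genes it was 0.42, 0.34 and 0.07. A length trend was not confined to ratios against control. For TGF-β + TNF-α over TGF-β, rho with length was -0.32 over all genes and -0.18 over the members. For TNF-α over control, 13 of the 20 members of lower GC content had a ratio above 1, against 1 of the 20 of higher GC content. Plk1 has 56.0% GC and Cenpe has 42.9%, while the median member has 46.5% and the median gene 49.9%. After centring each ratio on the median of all genes in the same of 10 GC bins, TNF-α over control left 0 members higher and 11 lower past 1.2 (9.19% and 7.93% of all genes), and TGF-β over control left 4 higher and 13 lower (27.2% and 27.4% of all genes). Plk1 was then 0.819 for TGF-β over control and 1.09 for TGF-β + TNF-α over TNF-α.

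**Figure D4:**
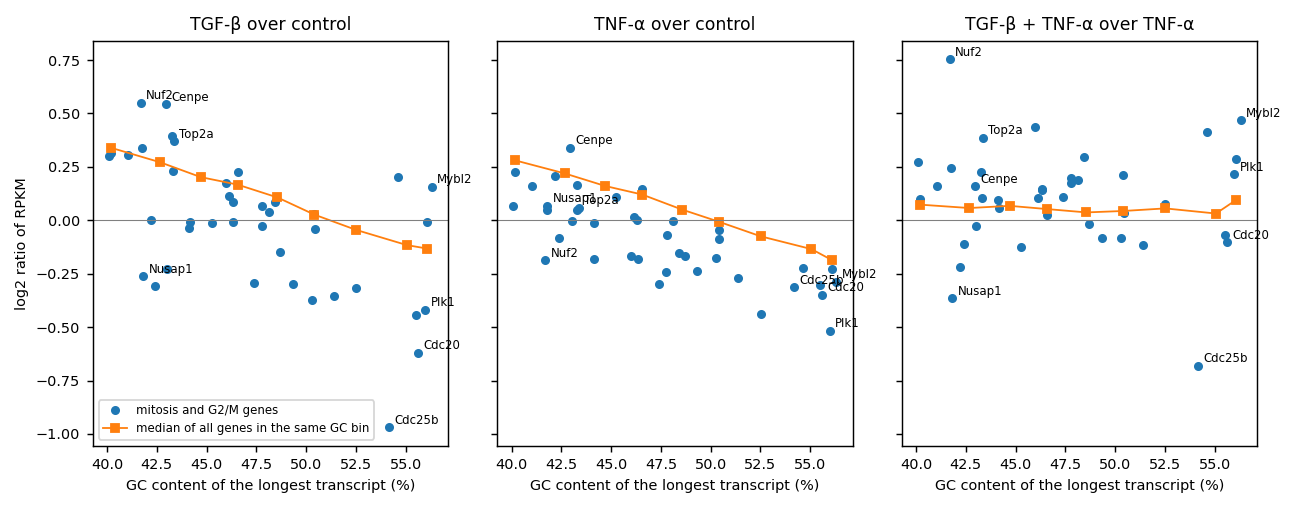
Log2 RPKM ratio against the GC content of the longest transcript (%) for the 40 members (blue) in 3 comparisons, with the median of all genes in each GC bin in orange, drawn at the median GC content of the members in that bin. Members and genes at large slope downward in both comparisons against control (rho -0.57 and -0.76 over members), while the orange line is nearly level for TGF-β + TNF-α over TNF-α.

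In the additive test, offsets for GC content and length raised the member calls to 4 that rose and 6 that fell. Nuf2, Foxm1, Mybl2 and Pttg1 rose, and Cdc25b, Nusap1, Cdc20, Ndc80, Kif11 and Anln fell. All genes also gained calls under these offsets, with 24.1% that rose and 25.2% that fell. With 1 library left out, 3 remain, which cannot carry both cytokine terms with a residual degree of freedom, so TGF-β was then the only term. The arm left with 1 library was assumed to vary like the arm of 2, so that the spread came from TGF-β and TGF-β + TNF-α or from TNF-α and control. In such fits, 7 members rose and 5 fell without the control library (19.9% and 22% of all genes), and 8 rose and 12 fell without the TNF-α library (26.2% and 27.3%). Nuf2 rose and Cdc25b fell without the TGF-β library (10.1% and 12.2% of all genes) and without the TGF-β + TNF-α library (10.5% and 11.9%), with no other member called.

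Intron reads, which largely come from unspliced RNA, gave a further reading of the members. Introns took 8.50% of reads with TGF-β, 8.17% with TGF-β + TNF-α and 8.16% with TNF-α, against 6.72% in control, and the median intron ratio of genes with at least 30 intron reads was 1.36 for TGF-β over control and 1.06 for TGF-β + TNF-α over TNF-α. The members had medians of 1.17 and 1.14. Mad2l1 had the highest intron ratio of the members in both backgrounds, with 341 intron reads with TGF-β and 299 with TGF-β + TNF-α, against 140 with TNF-α and 134 in control. Its intron ratios were 2.36 (1.93 to 2.90) and 2.18 (1.78 to 2.69), where its exon ratios were 1.23 and 1.21. A ratio above 2 was reached by 16.1% of all such genes against control and by 3.96% against TNF-α, and no other annotated gene has exons within the span of Mad2l1.

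Mybl2 had 984 intron reads with TGF-β and 854 with TGF-β + TNF-α, against 548 with TNF-α and 525 in control. Its intron ratios were 1.74 (1.56 to 1.94) and 1.59 (1.43 to 1.78). Nuf2 had intron ratios of 1.68 (1.37 to 2.07) and 1.69 (1.37 to 2.09), close to its exon ratios. Cdc25b was lower in introns too, at 0.765 (0.638 to 0.918) and 0.773 (0.639 to 0.934), which is nearer to 1 than its exon ratios of 0.511 and 0.623. Nusap1 (0.791 and 0.918) and Cdc20 (0.678 and 0.965) were also below 1. Top2a (1.29 and 1.12) was above 1, but below the median of all genes against control (1.36) and above it against TNF-α (1.06). Intron reads were not tested across genes.

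**Figure D5:**
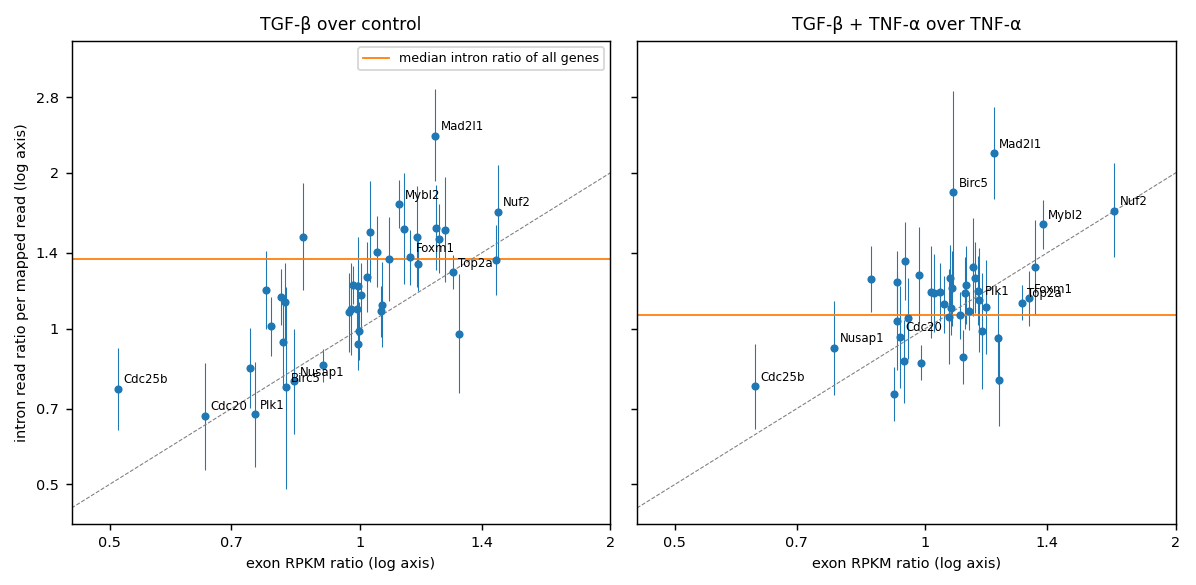
Intron read ratio per mapped read against exon RPKM ratio for the 40 members (log axes, bars are 95% counting intervals), for TGF-β over control (left) and TGF-β + TNF-α over TNF-α (right), with the median intron ratio of all genes in orange and equal ratios dashed. Mad2l1 is highest in both panels (2.36 and 2.18).

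Other cell cycle lists were counted in the same additive edgeR fit, to set the members beside neighbouring parts of the cycle. Counts in that fit stand beside 18.6% of all genes that rose and 19.9% that fell. Counts with offsets for GC content and length stand beside 24.1% and 25.2% of all genes. Those in DESeq2 stand beside 1871 genes that rose and 2066 that fell of 13765. At an unadjusted p under 0.05 in edgeR, 2979 genes were higher and 3107 lower of 13509. Of 89 other mitosis genes, 13 rose and 6 fell with TGF-β, and 18 rose and 11 fell with offsets for GC content and length. The largest changes were those of Sapcd2 (log2 fold change -0.91, SE 0.15) and the microtubule protein Psrc1 (-0.84, SE 0.15), both in the direction of Cdc25b. Of 48 DNA replication genes, 14 rose and 0 fell, with 2 lower at an unadjusted p under 0.05, 0 that fell in DESeq2, and 17 that rose and 2 that fell with the offsets. The G1/S cyclins led that list. Ccne1 had 5.35 RPKM with TGF-β and 5.44 RPKM with TGF-β + TNF-α, against 2.73 RPKM with TNF-α and 2.43 RPKM in control. Ccne2 rose by a log2 fold change of 0.75 (SE 0.16).

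Of 22 MuvB, DREAM and E2F genes, 7 rose and 1 fell, and 7 rose and 2 fell with the offsets. E2f7, a repressor of E2F targets, rose (0.93, SE 0.15), and E2f2, an activator, was the 1 that fell (-1.75, SE 0.17). Of 14 APC/C subunits, 2 rose, Anapc10 (0.42, SE 0.16) and Cdc27 (0.40, SE 0.15), and 0 fell in edgeR or DESeq2, with 1 lower at an unadjusted p under 0.05. Neither Anapc10 nor Cdc27 passed with the offsets (adjusted p = 0.13 each from edgeR), where another subunit rose and another fell, and Anapc10 did not pass in DESeq2 (adjusted p = 0.13). Among 7 G1 cyclins and kinases, 1 rose and 2 fell (3 and 2 with the offsets), with cyclin D1 (Ccnd1, 0.59, SE 0.12) up and cyclin D2 (Ccnd2, -0.47, SE 0.13) down.

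Of 12 tested CDK inhibitors and p53 targets, 1 rose and 4 fell (1 and 5 with the offsets). Cdkn1a (p21), a CDK inhibitor of the classical TGF-β arrest, fell. It had 35.6 RPKM with TGF-β and 38.2 RPKM with TGF-β + TNF-α, against 64.3 RPKM with TNF-α and 70.7 RPKM in control (log2 fold change -0.94, SE 0.14, adjusted p = 4.6e-10 from edgeR). The stress genes Gadd45a (1.08, SE 0.14) and Sesn2 (-1.05, SE 0.15) moved in opposite directions. Of 12 reference genes, 0 rose and 4 fell in edgeR, with 1 higher at an unadjusted p under 0.05 and 0 that rose in DESeq2, while 2 rose and 7 fell with the offsets. The glycolytic Pgk1 (-1.74, SE 0.12) and Gapdh (-1.28, SE 0.11) fell most. For TNF-α none of these lists had a call in edgeR or DESeq2, and 1 of the other mitosis genes had an unadjusted p under 0.05 in edgeR.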

How the data were processed

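RNA-seq was done on poly(A)-selected RNA from CMT64 cells, with 1 library per condition and 4 in all. Per the labels and the study's methods, the authors trimmed adapters, mapped reads to mm10 and counted them for each gene in CLC Genomics Workbench, whose version is not given in the sources used here. The count columns deposited by the authors are whole reads, in which total exon reads include reads with several hits. The RPKM values deposited by the authors rest on total exon reads and all mapped reads. Depth was 67481462 to 71898396 exon reads per library.

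The 40 members and all lists were chosen with earlier results of these data known. RPKM ratios carry 95% Clopper-Pearson intervals of the 2 read counts. Background shares beside RPKM ratios are over genes above 1 RPKM in either library, or over genes past an RPKM of 2 where that level is named. Shares beside test calls are over all genes tested in that fit. Shares for introns are over genes with at least 30 intron reads. Total exon reads of genes past filterByExpr were tested with edgeR (4.0.16, R 4.3.3, TMM factors, robust quasi-likelihood, additive TGF-β and TNF-α terms) and adjusted by Benjamini-Hochberg over 13509 genes. SE is the log2 fold change over the root of F. No label says how many cultures stand behind a library. The script was tested on simulated data. DESeq2 (1.42.0), limma (3.58.1) on log2(RPKM + pseudocount), library sizes only, unique reads, no filter, 1 term only, GC and length offsets, and each library left out (with the tested cytokine as the only term) were the alternatives. GC content came from GENCODE transcripts of mm10.

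Genes were named by rule: in each role the highest and lowest ratio of TGF-β over control and of TNF-α over control and any called member, with Cdk1, Ccnb1, Mki67, Foxm1, Mybl2 and Top2a, and in other lists the 2 largest called changes and Cdkn1a. Others named by an intron ratio or an interval were chosen after their values were seen. Ratios, intervals and figures were made in Python (3.11.15) with scipy (1.17.1), pandas (2.3.3), numpy (2.4.6) and matplotlib (3.10.9). TPM columns were not used here.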

Additional observations from a re-analysis of the deposited data

Results flagged for a closer look

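For 3 members, Plk1, Aurkb and Birc5, counting intervals lay on opposite sides of 1 for TGF-β without and with TNF-α. On the log2 scale the ratio with TNF-α present minus the ratio without it was 0.64 for Plk1, 0.41 for Birc5 and 0.39 for Aurkb. The difference was not tested, since each condition is 1 library. The control library was the highest of the 4 for each of these genes. Over the 40 members, TGF-β over control followed GC content (rho -0.57), but the part of GC content in this pattern was not tested. On the log2 scale, centring within GC bins took TGF-β over control from -0.42 to -0.29 for Plk1 and from -0.32 to -0.27 for Aurkb. For Birc5 it went the other way, from -0.30 to -0.46. After centring within GC bins the ratios for TGF-β over control and for TGF-β + TNF-α over TNF-α were 0.819 and 1.09 for Plk1, 0.829 and 1.01 for Aurkb, and 0.726 and 1.04 for Birc5. With TMM factors, the ratios with TNF-α present were 1.10 for Plk1, 1.03 for Birc5 and 1.00 for Aurkb. Those for TGF-β over control were 0.705 for Plk1, 0.769 for Birc5 and 0.758 for Aurkb. Intervals were not computed with these factors.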

How the results depend on the processing

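No paired analysis was possible because each condition is 1 library and the labels give no replicate numbers to pair. For TGF-β, 2 members rose and 3 fell in the additive edgeR fit (18.6% and 19.9% of all genes). The number that rose was 1 with no filter beyond 1 read (2300 of 20533 genes) and 1 with DESeq2 (1871 of 13765 genes). It was 4 under GC and length offsets (24.1% of all genes). The number that fell was 1 with library sizes only (16.4% of all genes) and 6 with the offsets (25.2%). Leaving out 1 library, with TGF-β as the only term and the lone library assumed to vary like the others, gave 1 to 8 that rose and 1 to 12 that fell (1406 to 3658 and 1654 to 3817 of all genes). The counts for TNF-α stayed at 0 in every alternative, while the calls over all genes, 39 that rose and 18 that fell, were 17 and 1 in DESeq2 and 0 with 1 term or with any library left out.

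For TGF-β over control, the 8 members higher past 1.2 became 4 with TMM factors (28.7% of all genes) and 4 with DESeq2 size factors. The number was 4 after centring within GC bins (27.2% of all genes) and 0 at a threshold of 1.5, where 2 were lower. For TGF-β + TNF-α over TNF-α, the 8 higher became 5 with TMM factors (21.5% of all genes) and 5 with DESeq2 size factors. The number was 5 after centring and 1 at a threshold of 1.5, where 1 was lower. For TNF-α over control, 0 were higher after centring (9.19% of all genes), and 0 were higher and 0 lower at 1.5. For TGF-β + TNF-α over control, the 9 higher became 4 with TMM factors, 4 with DESeq2 size factors, 3 after centring and 0 at 1.5, and the 8 lower became 14 after centring and 1 at 1.5. Shares of all genes were not counted for the settings given without one here, so those counts cannot be set against genes at large. The cause was not tested. Of the named genes that were followed through the alternatives, Mad2l1, which was not called, changed direction, with a log2 fold change of -0.081 under GC and length offsets, and the rest kept theirs. Ratios from 1 library per condition hold counting error only, so spread between cultures is unknown.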
